A study of Mus musculus with 24 samples.

Results

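Livers of NZB:C57 mice, which carry the NZB nuclear genome with C57 mitochondrial DNA (mtDNA), were compared with livers of NZB:NZB mice, which carry the same nuclear genome with its own mtDNA. The comparison was chosen by the sample labels alone and holds 6 of the 24 libraries of the series, 3 from NZB:C57 livers and 3 from NZB:NZB livers. NZB:C57 is a conplastic line, made by 10 generations of backcrossing, and NZB:NZB is the parental strain. The other libraries are NZB:C57 and NZB:NZB hearts (left ventricle) and livers and hearts of BL/6J:NZB and BL/6J:C57 mice, which have the C57BL/6 nuclear genome. All animals were males of 10 weeks, and each library is a pool of equal RNA from 4 animals out of 12 per genotype. Replicates thus differ in the animals pooled, and p-values reflect pool-to-pool spread. Heart pools may hold the same animals as liver pools.

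A conplastic line tests what mtDNA does on a fixed nuclear genome, because mitochondria pass through the mother while the nuclear genes are replaced by backcrossing. The liver makes plasma proteins, bile acids and urea and clears foreign compounds, and hepatocytes do most of this work. In mice many of these genes differ between the sexes. Growth hormone is secreted in pulses in males and more evenly in females, and the transcription factor STAT5 carries this pattern to the genes. The major urinary proteins (MUPs), small carriers of pheromones that the liver makes and the urine excretes, are a classic set of male-biased products, while several cytochrome P450 genes are female-biased.

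The recovered reads ran from 7294525 to 17575026 in NZB:C57 livers and from 10809960 to 13022817 in NZB:NZB livers. The 15323 genes of the table hold more zeros in NZB:C57 livers, from 1017 to 1507 genes, than in NZB:NZB livers, from 610 to 744 genes. The liver label held in all 6 libraries, with albumin (Alb) between 142507 and 155398 normalised reads in NZB:C57 livers and between 127013 and 133075 in NZB:NZB livers, against at most 62.2 in the hearts of these genotypes. Transcripts of heart muscle were nevertheless present. Cardiac myosin Myh6 had values of 0, 46.6 and 35.2 in NZB:C57 livers and 42.3, 23.9 and 13.2 in NZB:NZB livers, while the BL/6J livers had at most 0.0558. Among the 6 NZB livers, Mb, Tnnt2 and Actc1 were likewise at 0 in NZB:C57 replicate 1 only. Their summed list of 20 heart muscle markers ran from 289 to 589.7 in NZB:C57 livers and from 498 to 667 in NZB:NZB livers, and 0 of 19 tested members were called. The mtDNA of the libraries was taken from the labels. Gm13340, a nuclear copy of mtDNA sequence on chromosome 2 that was chosen after its values were seen, had values from 8.42 to 25.2 in BL/6J:NZB livers and from 0.438 to 0.725 in BL/6J:C57 livers, and so differed between the mtDNA types there. In the NZB nuclear background it had 15.6, 6.79 and 12.7 in NZB:C57 livers and 18.0, 15.8 and 17.9 in NZB:NZB livers, so all 3 libraries labelled NZB:C57 lay above the BL/6J:C57 livers, and 2 of them in the range of the BL/6J:NZB livers. In hearts it ran from 19.4 to 28.4 in NZB:C57 and from 33.3 to 39.2 in NZB:NZB, against 65.9 to 109.7 in BL/6J:NZB and at most 1.48 in BL/6J:C57. Whether the labels of these libraries are right was not tested, and each direction given here rests on them.

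Of 13159 genes tested, 480 were higher in NZB:C57 livers and 584 lower at an adjusted p under 0.05 (limma on the log2 of the value plus 1), which is 3.65% and 4.44% of the genes, or 8.09% together. Such genes are called higher or lower here. The values of the NZB:C57 and NZB:NZB livers did not overlap for 1060 of the 1064 called genes, and of all genes tested 26.5% did not overlap. The change was at least 2-fold for 243 of the higher and 198 of the lower genes. The median log2 fold change of all genes was -0.0028 and moved to -0.23 when the values were scaled by library totals. That scaling gave 352 higher and 2534 lower genes. Leaving out NZB:NZB replicate 1, 2 or 3 gave 311, 331 and 364 lower genes, and all 24 libraries in 1 fit gave 909. The BL/6J livers, with the other nuclear genome, give a scale for these changes. All 3 NZB:C57 livers lay above all 9 other livers in 288 of the 480 higher genes and below them in 122 of the 584 lower genes. All 3 NZB:NZB livers lay below all 9 other livers in 198 of the higher genes and above them in 373 of the lower genes. The called genes were chosen for a gap between NZB:C57 and NZB:NZB livers. Over all 13159 genes, NZB:C57 livers lay above the other 9 livers in 516 and below them in 365, and NZB:NZB livers lay above in 827 and below in 592. The median length of the longest annotated transcript was 2341 bases for the higher, 3890 for the lower and 3293 for all genes tested.

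**Figure D1:**
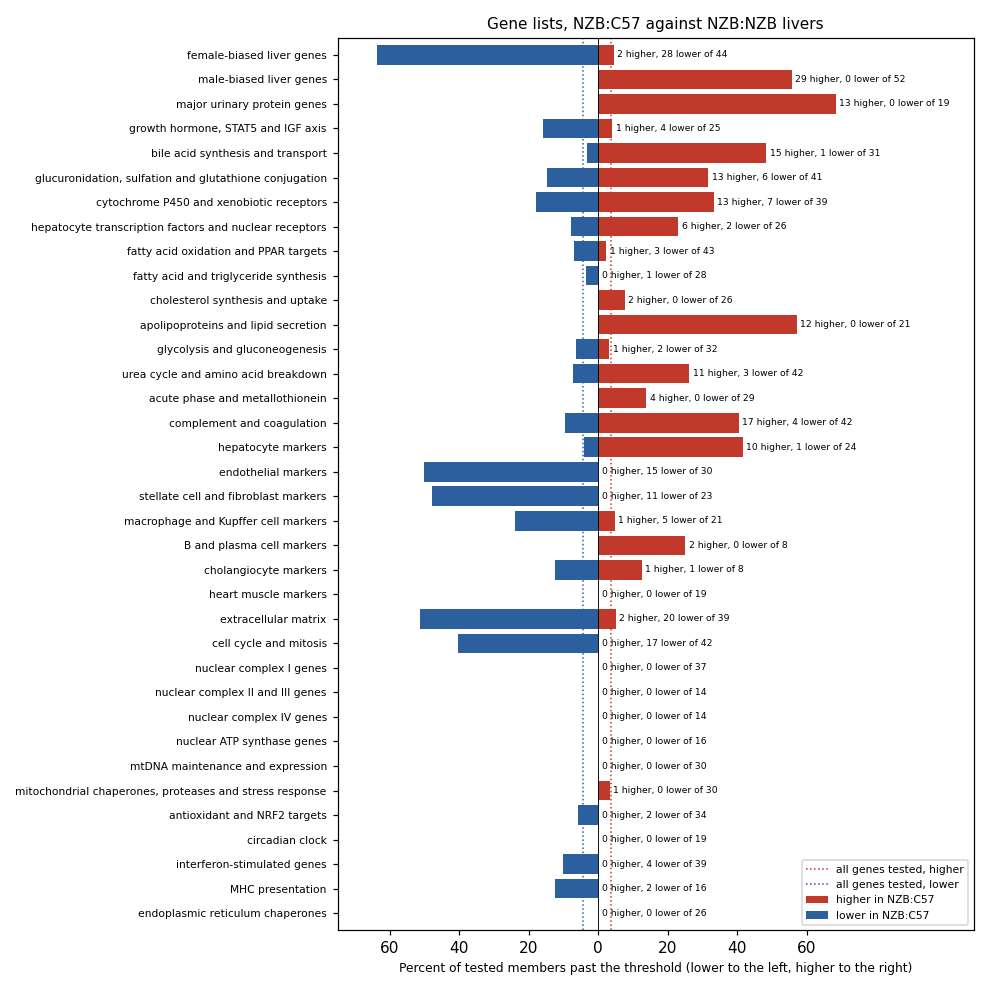
Percent of the tested members of each gene list called lower (blue, to the left) or higher (red, to the right) in NZB:C57 livers against NZB:NZB livers, with the counts beside each bar and the share of all 13159 genes as dotted lines. MUP, male-biased, apolipoprotein, bile acid and clotting lists reach to the right, while female-biased, endothelial, stellate, matrix and cell cycle lists reach to the left.

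The MUP genes lie in a cluster on chromosome 4, with copies that are alike to differing degrees. The start regions of the 3 genes of the male-biased list with the largest rises are shown because these genes moved together. The regions lie mostly before the annotated start, so they do not bear on how reads are divided among copies. They are RefSeq sequences (build GRCm38.p6, all on the minus strand), 250 bases before to 50 bases after the annotated start, and the capitals mark the longest run of bases that all 3 share, 23 bases long.
Mup17 (chr4:61595783-61596082): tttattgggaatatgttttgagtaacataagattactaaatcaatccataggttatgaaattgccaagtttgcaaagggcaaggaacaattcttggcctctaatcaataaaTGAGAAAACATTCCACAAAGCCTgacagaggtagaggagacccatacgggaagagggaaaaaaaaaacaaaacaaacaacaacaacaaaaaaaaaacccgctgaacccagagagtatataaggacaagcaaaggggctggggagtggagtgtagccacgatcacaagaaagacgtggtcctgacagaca
Mup21 (chr4:62150792-62151091): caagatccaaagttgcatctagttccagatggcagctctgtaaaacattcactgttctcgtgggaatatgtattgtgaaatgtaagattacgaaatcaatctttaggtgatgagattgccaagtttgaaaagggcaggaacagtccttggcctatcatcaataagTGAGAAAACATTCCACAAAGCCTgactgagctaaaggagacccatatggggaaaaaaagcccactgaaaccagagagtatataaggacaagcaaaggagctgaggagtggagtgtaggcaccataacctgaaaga
Mup7 (chr4:60070426-60070725): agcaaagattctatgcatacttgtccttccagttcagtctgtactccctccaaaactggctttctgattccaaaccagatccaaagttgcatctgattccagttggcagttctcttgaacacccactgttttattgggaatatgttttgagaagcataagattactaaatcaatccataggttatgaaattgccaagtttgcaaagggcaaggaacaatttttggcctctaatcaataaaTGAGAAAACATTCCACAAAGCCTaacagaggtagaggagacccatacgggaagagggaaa
The run begins 139 bases before the annotated start in Mup17, 85 before it in Mup21 and 10 before it in Mup7, so the annotated starts differ by gene. It was found in 10 of the 14 MUP start regions and in 10 of all 32851. The STAT5 motif TTCNNNGAA, a palindrome read the same on both strands, was in 0 of the 14 MUP start regions, against 8.30% of all. It was in 4 of 44 regions of male-biased genes (9.09%) and 6 of 49 regions of female-biased genes (12.2%), with 1 match in the region of the female-biased gene A1bg and none in those of Cyp3a41b and Cyp2b9.

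Of 19 tested MUP genes, 13 were higher in NZB:C57 livers and 0 lower, with a median log2 fold change of 3.03 against -0.0028 over all genes, and the summed MUP values were 51826, 42509 and 47681 in NZB:C57 livers, against 18892, 15499 and 22023 in NZB:NZB livers. Both sets lay far below the BL/6J livers, whose sums ran from 107737 to 176371. Mup17 (chromosome 4, 61591929 to 61595871) had values of 880.5, 479 and 751 in NZB:C57 livers, against 15.6, 5.01 and 6.41 in NZB:NZB livers. Its groups were far apart, with a log2 fold change of 6.24 (SE 0.42, adjusted p = 2.28e-07). Mup18 had 112, 80.9 and 96.6 in NZB:C57 livers, against 0.548, 1.18 and 0 in NZB:NZB livers. It was close to absent from the NZB:NZB livers and changed by 6.01 (SE 0.28, adjusted p = 1.08e-08). Mup20, known as darcin, the MUP that makes male urine attractive to females, had 595, 512 and 497 in NZB:C57 livers, against 34.9, 28.3 and 46.3 in NZB:NZB livers (log2 fold change 3.86, SE 0.18, adjusted p = 1.08e-08). Its level in BL/6J livers was 13101 to 20146, well above both. Mup7 had 2759.7, 2296 and 1771 in NZB:C57 livers, against 126, 88.0 and 169 in NZB:NZB livers (log2 fold change 4.17).

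Mup11, Mup14, Mup16 and Mup21 had log2 fold changes between 4.10 and 4.48, and Mup13 one of 3.03, all without overlap. The most abundant member, Mup10, had 19911, 15785 and 21301 in NZB:C57 livers, against 5629.8, 5123 and 7870.0 in NZB:NZB livers, a smaller change of 1.63 (SE 0.22). Mup3 changed by 1.55 and Mup1 by 1.12, and the call of Mup1 ended without NZB:NZB replicate 2 and with quantile normalization (adjusted p = 0.0520 and 0.185). Mup19 had 117, 80.2 and 0 in NZB:C57 livers and 0 in all NZB:NZB livers, which is at least 660-fold higher against a floor of 3 reads over the group, but its groups overlapped at 0. Its call ended under 8 alternatives, among them the fit without NZB:C57 replicate 1 or 2 or without any 1 NZB:NZB library (adjusted p from 0.0509 to 0.180 over the 8). With Mup19 at its bound the median of the list stayed at 3.03. Mup2 was the abundant exception in direction, with 2287, 1713 and 1991 in NZB:C57 livers, against 3396, 2675 and 3691 in NZB:NZB livers (log2 fold change -0.70, adjusted p = 0.172). Mup9 at -0.23, Mup12 at 1.77, Mup5 at 0.58 and Mup8 at 0.62 did not pass either (adjusted p = 0.0558 for Mup12 and between 0.202 and 0.858 for the other 3), and Mup15 was at 0 in all 6 livers. These genes share between 30.1% (Mup3) and 100% (Mup19 and Mup15) of their 31-base words with another gene, so the share of reads each received is uncertain.

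In hearts of the same genotypes, MUP reads were few and most changes had the opposite sign. Mup7 had 0.425, 0.908 and 0.662 in NZB:C57 hearts, against 0, 38.1 and 59.2 in NZB:NZB hearts, so NZB:NZB heart 1 lay below the NZB:C57 hearts. Mup7, Mup11, Mup17, Mup19 and Mup20 were called in heart with log2 fold changes of -3.01, -2.16, -1.75, -2.94 and -1.93, all opposite to liver. NZB:NZB heart 1 was at 0 for all 5, so the heart groups overlapped and the other 2 NZB:NZB hearts carried these calls. In those hearts Mup7 had 38.1 and 59.2, against 88.0 to 169 in NZB:NZB livers. Alb had 59.9, 52.0 and 54.8 in NZB:NZB hearts, against 127013 to 133075 in NZB:NZB livers. Where the MUP reads in hearts came from was not tested. Mup3, Mup10 and Mup14 had opposite signs that did not pass in heart, as had Mup2, Mup1 had the same sign without passing, and the other MUP genes were under the filter there.

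**Figure D2:**
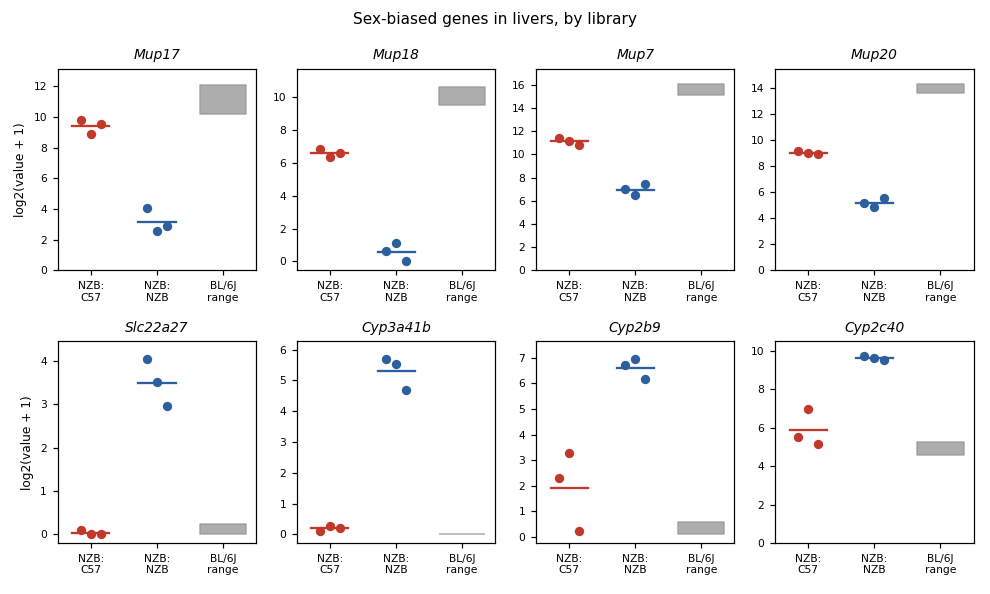
Values of 4 MUP genes and 4 female-biased genes as log2(value + 1) in each NZB:C57 liver (red) and NZB:NZB liver (blue), with bars at the group means and the range of the 6 BL/6J livers in grey. NZB:C57 livers lie above NZB:NZB livers for each MUP gene and below them for each female-biased gene, without overlap.

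Of 52 tested male-biased liver genes, 29 were higher, 0 lower and 23 not called, with a median log2 fold change of 1.03. With library totals 27 were higher and 2 lower, and with quantile normalization 26 and 3. The list holds some MUP genes. Among its other members, Gstp1, a glutathione transferase, had 858, 871 and 819.9 in NZB:C57 livers, against 186, 265 and 246 in NZB:NZB livers (log2 fold change 1.88, SE 0.15, adjusted p = 1.09e-06). All NZB:C57 livers lay above all NZB:NZB livers and below the BL/6J livers, at 2139 to 3488. Ces2a, a carboxylesterase that cleaves drugs and lipid esters, had 1366, 1423 and 1087 in NZB:C57 livers, against 336, 364 and 374 in NZB:NZB livers (log2 fold change 1.84). Complement components C6 and C9, which build the membrane attack complex, rose by 2.31 and 2.38. Hsd3b5, a male-biased hydroxysteroid dehydrogenase named here after its values were seen, had 1163, 1093 and 720.3 in NZB:C57 livers, against 249, 177 and 219 in NZB:NZB livers. Elovl3 and Cyp4a12a, also named after their values were seen, overlapped between the groups. Elovl3 had 71.0, 78.4 and 48.9 in NZB:C57 livers and 41.3, 33.9 and 62.4 in NZB:NZB livers. Cyp4a12a had 424, 413 and 285 in NZB:C57 livers and 239, 225 and 366 in NZB:NZB livers. Gstp1 was lower in NZB:C57 hearts (log2 fold change -1.08, adjusted p = 1.2e-07), opposite to liver. Ces2a, C6, C9, Hsd3b5, Elovl3 and Cyp4a12a were not tested in heart.

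Female-biased liver genes moved the other way, with 28 of 44 lower and 2 higher and a median of -1.36, which stayed at -1.36 with the 2 members at 0 in NZB:C57 livers set to their bounds. Cyp3a41b, a cytochrome P450, was represented by 1 read in each NZB:C57 liver, against values of 50.4, 44.9 and 24.9 in NZB:NZB livers. The ratio of NZB:NZB to NZB:C57 livers was 320 (95% counting interval 110 to 1553). Cyp2b13 was at 0 in all NZB:C57 livers, against 12.7, 17.0 and 8.07 in NZB:NZB livers, at least 100.7-fold lower with a floor of 3 reads over the group. Slc22a27, an organic anion transporter, had 1 read in the NZB:C57 livers together, against 15.4, 10.4 and 6.75 in NZB:NZB livers. Its ratio was 261, with an interval from 46.8 to 10297. In BL/6J livers Cyp3a41b and Cyp2b13 were at 0 and Slc22a27 reached at most 0.167. These 3 genes thus met the filter through the NZB:NZB livers alone and could only be called lower. Their calls therefore say nothing on the direction of the list, and how many of the 28 were of this kind was not counted.

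Cyp2c40, a steroid and fatty acid hydroxylase, had 44.7, 123.4 and 35.1 in NZB:C57 livers, against 855, 789 and 745 in NZB:NZB livers (log2 fold change -3.75, SE 0.33). Cyp2b9 had 3.92, 8.73 and 0.165 in NZB:C57 livers, against 105, 121 and 71.3 in NZB:NZB livers (log2 fold change -4.68, SE 0.53). Cyp2c69 fell by 3.39 and the transporter Slc22a26 fell by 2.97. A1bg, a secreted immunoglobulin-like plasma protein, had 2.98, 3.69 and 0 in NZB:C57 livers, against 77.9, 117 and 22.2 in NZB:NZB livers, and Hao2, a peroxisomal hydroxyacid oxidase, had 9.01, 0.194 and 0.165 in NZB:C57 livers, against 54.7, 54.3 and 40.7 in NZB:NZB livers. Cyp3a41a had 15.1, 40.6 and 325 in NZB:C57 livers, against 562, 515 and 413 in NZB:NZB livers, so NZB:C57 replicate 3 came near the NZB:NZB livers, and its call ended under 7 alternatives, including without NZB:C57 replicate 2 and without NZB:NZB replicate 1 or 2 (adjusted p from 0.0565 to 0.615). Cyp3a44 fell by 3.62, and DESeq2 did not call it (adjusted p = 0.247). In BL/6J livers Cyp3a41a was at 0, and Cyp2b9, A1bg, Hao2 and Cyp3a44 reached at most 0.504, 0.258, 0.112 and 0.167. Slc22a26 reached at most 0.558 there, while Cyp2c69 ran from 4.94 to 8.65 and Cyp2c40 from 22.8 to 37.2. For each of these genes the NZB:NZB livers lay further from the BL/6J livers than the NZB:C57 livers did. Cyp3a41a and Cyp3a41b share 99.9% and 95.9% of their 31-base words with another gene, and the other P450 members named share between 26.1% and 72.6%, so reads between copies are uncertain. The exception among those named was Cyp4a10, a fatty acid hydroxylase and PPAR target, which was higher at 1122, 1226 and 1182 in NZB:C57 livers, against 449, 532 and 505 in NZB:NZB livers (log2 fold change 1.25). The count of lower members was 17 without NZB:NZB replicate 2 and 12 when only genes above 0 in all 12 libraries of the NZB nuclear background were tested.

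Several female-biased genes were expressed in heart, each with an opposite change. Cd36, the fatty acid uptake receptor, had 14.5, 13.4 and 13.8 in NZB:C57 livers, against 46.0, 39.2 and 41.3 in NZB:NZB livers (log2 fold change -1.53, SE 0.12), and 2485, 2449 and 2545 in NZB:C57 hearts, against 1148, 944 and 1069 in NZB:NZB hearts (log2 fold change 1.25, adjusted p = 9.5e-10). Fmo2 had 7.13, 7.18 and 5.93 in NZB:C57 livers, against 39.8, 19.0 and 36.9 in NZB:NZB livers, and changed by 1.96 in heart. Cd36 and Fmo2 were thus both higher in the NZB:NZB livers and in the NZB:C57 hearts. Acot3, a peroxisomal acyl-CoA thioesterase, had 1.02, 3.88 and 2.14 in NZB:C57 livers, against 19.2, 20.8 and 16.6 in NZB:NZB livers, and changed by 1.07 in heart. Of the 11 called female-biased genes tested in heart, 11 had the opposite sign and 11 passed there, against 640 opposite and 410 passing of all 660 liver-called genes tested in heart. The other female-biased P450, transporter and plasma protein genes named above were not tested in heart.

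The receptors, kinases and transcription factors of the growth hormone, STAT5 and insulin-like growth factor axis were examined next. Of 25 tested members, 1 was higher and 4 lower, with a median of 0.10 that turned to -0.14 with library totals and -0.06 with quantile normalization. The growth hormone receptor Ghr had 736, 735 and 575 in NZB:C57 livers and 737, 613 and 689 in NZB:NZB livers, overlapping, with a log2 fold change of 0.00 (adjusted p = 1). Igf1, the growth factor that growth hormone induces in liver, had 1303, 1362 and 1209 in NZB:C57 livers and 1586, 1259 and 1506 in NZB:NZB livers (log2 fold change -0.16, SE 0.10, adjusted p = 0.485). Stat5b, the STAT form tied to male liver expression, changed by 0.10 (adjusted p = 0.76), Stat5a by 0.17 and Jak2, the receptor's kinase, by -0.23. The called members were Prlr, the prolactin receptor, at 242, 272 and 229 in NZB:C57 livers, against 560.3, 471 and 461 in NZB:NZB livers (log2 fold change -1.001, SE 0.10), Igfbp3 at -1.37, Cux2 at -1.61, Trim24 at -0.61 and Igfbp2 at 0.86. Cux2, a repressor of male-biased genes in female liver, had 0.784, 0 and 0.823 in NZB:C57 livers, against 2.56, 2.75 and 5.97 in NZB:NZB livers. BL/6J livers reached at most 0.335, so Cux2 met the filter through the NZB:NZB livers alone and could only be called lower. In hearts it had 55.8, 49.0 and 38.9 in NZB:C57 against 6.04, 6.61 and 6.08 in NZB:NZB. Prlr, Cux2 and Trim24 are also members of the female-biased list. Trim24, a coregulator of nuclear receptors, lost its call without NZB:NZB replicate 2 (adjusted p = 0.0546). Prlr, Igfbp3, Cux2 and Trim24 were called in heart with the opposite sign, and Igfbp2 was not tested there.

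Feedback genes of growth hormone signalling set 1 library apart. Cish, an inhibitor of cytokine receptors that STAT5 induces, had 28.4, 20.6 and 25.4 in NZB:C57 livers and 24.9, 3.05 and 36.4 in NZB:NZB livers. Socs2, an inhibitor of the same kind, had 77.5, 71.2 and 64.9 in NZB:C57 livers and 137, 14.8 and 89.0 in NZB:NZB livers. Onecut1, a hepatocyte factor, had 55.3, 35.5 and 103 in NZB:C57 livers and 98.9, 8.06 and 97.7 in NZB:NZB livers. Bcl6, a repressor known to be higher in male liver, had 36.6, 50.3 and 22.9 in NZB:C57 livers and 15.4, 78.9 and 15.4 in NZB:NZB livers. NZB:NZB replicate 2 was thus lowest of the 6 in Cish, Socs2 and Onecut1 and highest in Bcl6, and none of these 4 genes differed between the groups (adjusted p from 0.762 to 0.891). Without that library the log2 fold changes of Cish, Socs2 and Onecut1 were -0.28, -0.63 and -0.73, in place of 0.70, 0.31 and 0.42 with it. Igfbp4, Igfals, Ptpn11, Stat3, Socs3, Esr1, Igfbp1, Igf2r and Ptpn6 did not pass either, with log2 fold changes from -0.24 to 0.54. In heart, Stat3 was called lower (log2 fold change -0.28) and so had the opposite sign, Igf1 and Ptpn6 had the same sign without passing, and the remaining members named here that did not pass in liver and were tested in heart had the opposite sign without passing. Onecut1 and Igfbp1 were not tested in heart.

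The Y-linked genes, a check of the label male, were present at like levels in all 6 livers. Eif2s3y, Kdm5d, Uty and Ddx3y, which encode a translation factor, 2 histone demethylases and an RNA helicase, had log2 fold changes between -0.08 and 0.11 (adjusted p from 0.675 to 0.994). Their sums were 168.8, 179 and 197 in NZB:C57 livers and 202, 152 and 195 in NZB:NZB livers, so no library lacked them. These genes cannot show that a pool held no female, and the list had no X-inactivation gene that could be tested. In heart the signs were opposite for Eif2s3y and Ddx3y and the same for Kdm5d and Uty, and none passed.

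Of 31 tested bile acid genes 15 were higher, 1 lower and 15 not called, with a median of 0.42. Bile acids are made from cholesterol, joined to taurine or glycine and pumped into bile. Baat, which joins them to taurine, had 860.1, 816 and 834 in NZB:C57 livers, against 173, 171 and 170.1 in NZB:NZB livers, with a log2 fold change of 2.28 (SE 0.09, adjusted p = 1.37e-09). The replicates of each group differed by little beside the gap between groups. Akr1d1, the reductase that shapes the bile acid ring, had 964, 921 and 738 in NZB:C57 livers, against 193, 201 and 199 in NZB:NZB livers (log2 fold change 2.13). Slc10a1, the transporter that returns bile acids from blood, had 2145, 1941 and 1658 in NZB:C57 livers, against 552, 497 and 578 in NZB:NZB livers (log2 fold change 1.81). For Baat, Akr1d1 and Slc10a1 the NZB:C57 livers exceeded the BL/6J livers too, which reached 309, 170.1 and 584. Cyp7a1, the rate-limiting enzyme of bile acid synthesis, named after its values were seen, had 135, 44.8 and 92.7 in NZB:C57 livers, against 37.3, 14.8 and 25.9 in NZB:NZB livers, a smaller gap between groups. Acox2, the peroxisomal oxidase that shortens the side chain of bile acid precursors, was the member that fell, to 113, 115 and 119 in NZB:C57 livers, against 215, 213 and 228 in NZB:NZB livers (log2 fold change -0.91). Baat, Akr1d1, Slc10a1 and Acox2 were not tested in heart.

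Genes for conjugation and oxidation of foreign compounds changed in both directions. Of 41 tested conjugation genes 13 were higher and 6 lower, and of 39 tested P450 and xenobiotic receptor genes 13 were higher and 7 lower, with medians of 0.19 and 0.14 that turned to -0.01 and -0.10 with library totals and to -0.01 and -0.08 with quantile normalization. Ugt1a1 (chromosome 1, 88211959 to 88218997), which conjugates bilirubin, had 4767, 4883 and 3518 in NZB:C57 livers, against 297, 312 and 279 in NZB:NZB livers, with a log2 fold change of 3.87 (SE 0.12, adjusted p = 4.14e-10). All 9 other livers lay between 279 and 363. Ugt1a1 shares 58.5% of its 31-base words with other genes of its locus, which join different first exons to common exons, so this value may include their reads. Ugt2a3, another glucuronosyltransferase, rose by 2.24 and Sult2a8, a bile acid sulfotransferase, by 2.04. Cyp2c67 rose by 2.53, Cyp2c23, which makes epoxides of arachidonic acid, by 2.95, Cyp2c50 by 2.41 and Cyp2a12 by 1.23. Cyp2c67 shares 67.6% of its words with other genes, most with Cyp2c40 and Cyp2c69, which fell. Cyp2c50 and Cyp2a12 share 29.2% and 34.5%, so reads between these copies are uncertain. Nr1i2, the pregnane X receptor that switches on many of these enzymes, was lower at 40.8, 58.6 and 44.3 in NZB:C57 livers, against 74.8, 88.6 and 93.5 in NZB:NZB livers (log2 fold change -0.84). None of these genes was tested in heart except Gstp1, given above. Without NZB:NZB replicate 3 the count of lower conjugation genes was 2, without any other 1 library 3 or 4, and with quantile normalization it was 10.

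Transcription factors that define hepatocytes changed in part. Of 26 tested, 6 were higher and 2 lower, with a median of 0.01 that turned to -0.22 with library totals and -0.05 with quantile normalization. Onecut2 had 213, 194 and 263 in NZB:C57 livers, against 99.1, 94.3 and 109 in NZB:NZB livers (log2 fold change 1.13). The bile acid receptor Nr1h4 rose by 0.84. Hnf4a, the broadest regulator of hepatocyte genes and named after its values were seen, was lower at 339, 368 and 506 in NZB:C57 livers, against 565, 708 and 653 in NZB:NZB livers (log2 fold change -0.68). The groups did not overlap for any of these 3 factors, and neither Onecut2 nor Nr1h4 was tested in heart. The count of higher factors was 4 without NZB:C57 replicate 2 or 3, without NZB:NZB replicate 1 or 2, with library totals and with no filter, and 1 when only genes above 0 in all 12 NZB-nucleus libraries were tested.

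Of 42 tested complement and coagulation genes 17 were higher, 4 lower and 21 not called, with a median of 0.20 that turned to -0.04 with library totals and -0.17 with quantile normalization. With library totals 12 were higher and 10 lower, with quantile normalization 11 and 7, and 2 were lower without NZB:C57 replicate 1 or 2 or any 1 NZB:NZB library. Cpb2, which slows the breakdown of clots, had 1570.0, 1704 and 2051 in NZB:C57 livers, against 309, 280.0 and 297 in NZB:NZB livers (log2 fold change 2.57, SE 0.12, adjusted p = 1.18e-08). Clotting factor F9 on chromosome X had 798, 825 and 916 in NZB:C57 livers, against 189.9, 174 and 179 in NZB:NZB livers, and F10 had 1489.6, 1589 and 1476 in NZB:C57 livers, against 419, 433 and 439 in NZB:NZB livers. The NZB:C57 livers stood above the BL/6J livers for all 3 genes, and the NZB:NZB livers lay inside their range for F9. Apolipoprotein and lipid secretion genes had 12 of 21 members higher and 0 lower, with a median of 0.57. The median was 0.33 with library totals and 0.24 with quantile normalization, and 3 members were lower under each. Apoc2, the activator of lipoprotein lipase, had 662, 688 and 592 in NZB:C57 livers, against 234, 219.7 and 238 in NZB:NZB livers. Angptl8, an insulin-induced inhibitor of lipoprotein lipase, had 133, 192 and 185 in NZB:C57 livers, against 25.7, 28.4 and 38.9 in NZB:NZB livers, Lipc, hepatic lipase, rose by 1.10 and Apoa5 by 1.048. Higher apolipoprotein genes numbered 7 without NZB:NZB replicate 1, 8 without NZB:C57 replicate 2 or NZB:NZB replicate 2 or 3, 8 with no filter, 7 with all 24 libraries in 1 fit or library totals and 6 with quantile normalization. None of the genes named here was tested in heart.

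**Figure D3:**
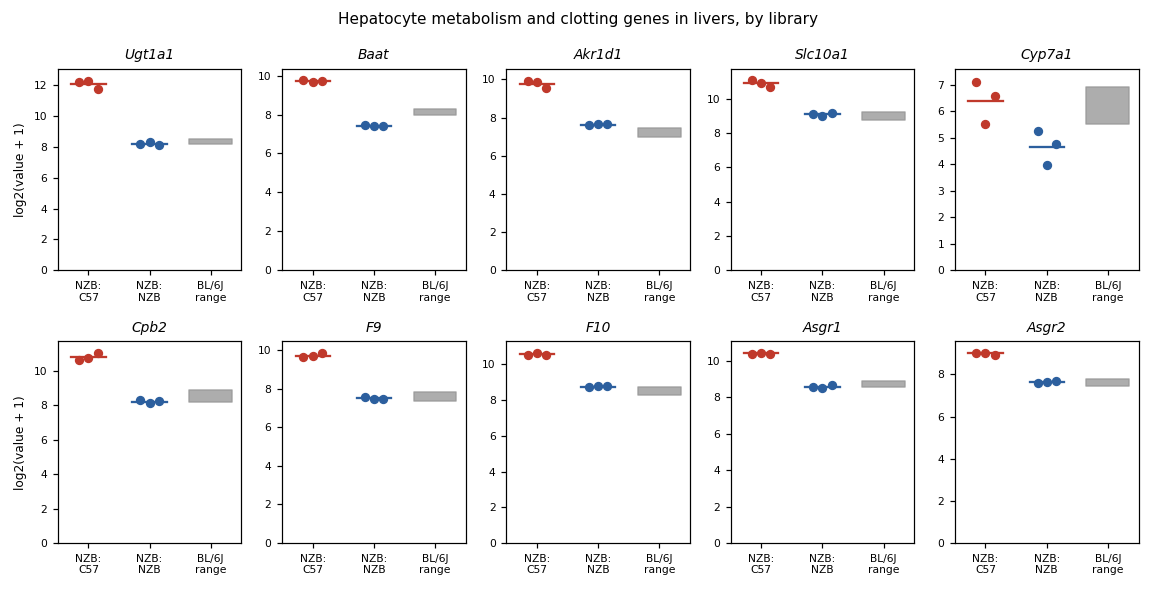
Values of 10 hepatocyte genes as log2(value + 1) in each NZB:C57 liver (red) and NZB:NZB liver (blue), with bars at the group means and the range of the 6 BL/6J livers in grey. NZB:C57 livers lie above NZB:NZB livers for each gene, and above the BL/6J range for each but Cyp7a1.

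Hepatocyte markers had 10 of 24 members higher, 1 lower and a median of 0.45. The median was 0.21 with library totals and 0.04 with quantile normalization. The 2 subunits of the asialoglycoprotein receptor, which removes aged glycoproteins from blood, moved together. Asgr1 had 1365, 1407 and 1351 in NZB:C57 livers, against 381, 372 and 407 in NZB:NZB livers (log2 fold change 1.83, SE 0.09), and Asgr2 had 523, 521 and 492 in NZB:C57 livers, against 193, 196 and 208 in NZB:NZB livers (log2 fold change 1.36). Serpina1b and Serpina1d, antitrypsin genes that share 44.7% and 64.7% of their words with close copies, rose by 0.94 and 1.054. Both had the opposite sign in heart without passing, and Asgr1 and Asgr2 were not tested there. With all 24 libraries in 1 fit Serpina1b and Serpina1d lost their calls (adjusted p = 0.115 and 0.0578) and 2 markers were higher. The count was 5 without NZB:C57 replicate 2 or NZB:NZB replicate 1 or with library totals, and 4 with quantile normalization.

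Acute phase genes had 4 of 29 members higher and 0 lower, and 1 library stood out. Saa3, an inflammatory serum amyloid, had 9.88, 8.34 and 30.95 in NZB:C57 livers, against 1.28, 2.56 and 2.10 in NZB:NZB livers. Orm1, an acid glycoprotein, had 908, 1023 and 2171 in NZB:C57 livers, against 603, 510.5 and 550.1 in NZB:NZB livers, and Apcs, the pentraxin that mice raise in inflammation, had 729, 849 and 1875 in NZB:C57 livers, against 433, 345 and 366 in NZB:NZB livers. NZB:C57 replicate 3 was highest in each, with a sum over the list of 86906 against 38909 and 44370 in the other NZB:C57 livers and 36414 to 39450 in NZB:NZB livers. The groups did not overlap, but without NZB:C57 replicate 3 the calls of Saa3 and Apcs ended, as they did without NZB:NZB replicate 1 or 3, and that of Apcs also without NZB:NZB replicate 2, with no filter and with quantile normalization. Orm1 lost its call without NZB:NZB replicate 2 or 3, with no filter and with quantile normalization, and Saa3 also with a pseudocount of 5 and with no filter. Higher acute phase genes numbered 2 without NZB:C57 replicate 3 or NZB:NZB replicate 1 or 2 and 1 without NZB:NZB replicate 3 or with no filter. Ambp, the precursor of bikunin, rose by 0.79 (SE 0.12) and lost its call with all 24 libraries in 1 fit (adjusted p = 0.149). In heart Ambp and Orm1 had the opposite sign without passing, and Saa3 and Apcs were not tested.

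Amino acid breakdown had 11 of 42 tested genes higher and 3 lower, with a median of 0.11 that turned to -0.14 with library totals and -0.13 with quantile normalization. Hgd, of tyrosine breakdown, had 1264, 1346 and 1189 in NZB:C57 livers, against 442, 421 and 459 in NZB:NZB livers (log2 fold change 1.52, SE 0.08). Aass, of lysine breakdown, rose by 1.33, Agxt, which clears glyoxylate, by 1.37 and Hal, which starts histidine breakdown, by 0.87. The count of higher members was 6 without any 1 of NZB:C57 replicates 1 and 2 and NZB:NZB replicates 1 and 2, and also 6 with all 24 libraries in 1 fit, with library totals or with quantile normalization. Lower members numbered 13 with library totals and 8 with quantile normalization, more than the higher ones. Gys2, liver glycogen synthase, had 371, 381 and 351 in NZB:C57 livers, against 74.3, 83.1 and 82.3 in NZB:NZB livers (log2 fold change 2.19, SE 0.13). It was 1 of 3 called among 32 genes of glycolysis and gluconeogenesis, beside Pdk1 at -0.56 and Pkm at -0.94, while library totals called 12 lower and quantile normalization 5. Pkm, the muscle form of pyruvate kinase, had 6.19, 9.32 and 6.75 in NZB:C57 livers, against 19.3, 13.8 and 12.5 in NZB:NZB livers and lost its call without NZB:C57 replicate 1 or NZB:NZB replicate 1 (adjusted p = 0.0570 to 0.0798). It shares 34.7% of its words with processed copies. Pdk1 and Pkm were called in heart with the opposite sign, while Hgd, Aass, Agxt, Hal and Gys2 were not tested there.

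Counts for fat metabolism depended on the scaling. Of 43 fatty acid oxidation and PPAR target genes 1 was higher (Cyp4a10) and 3 lower (Acot3, Ucp2 and Acadl), and of 28 genes of fatty acid and triglyceride synthesis 1 was lower (Pnpla3). With library totals 19 of the oxidation and 12 of the synthesis genes were lower, and with quantile normalization 13 and 4. Ucp2, a mitochondrial carrier, had 20.9, 18.8 and 19.1 in NZB:C57 livers, against 30.98, 29.9 and 34.6 in NZB:NZB livers (log2 fold change -0.67). Acadl, long-chain acyl-CoA dehydrogenase, fell by 0.32 and lost its call under 11 alternatives, including without each 1 of the 6 libraries (adjusted p from 0.0511 to 0.184). Pnpla3, a lipid droplet lipase, fell by 1.23 and lost its call without NZB:NZB replicate 2 and with a pseudocount of 0.1 (adjusted p = 0.0514 to 0.0569). Of 26 cholesterol genes 2 were higher and 0 lower, while library totals gave 6 lower and quantile normalization 3. Scarb1, the receptor for high-density lipoprotein, had 172, 183 and 193 in NZB:C57 livers, against 112, 115 and 120.4 in NZB:NZB livers (log2 fold change 0.65), and Lcat, which esterifies plasma cholesterol, rose by 0.43 but lost its call under 4 alternatives, including without NZB:NZB replicate 2. Ucp2, Acadl, Pnpla3 and Scarb1 were called in heart with the opposite sign, and Lcat had the opposite sign without passing.

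Among markers of cells other than hepatocytes, those of endothelial and stellate cells were lower or not called. In bulk liver, fewer cells of a type and less RNA per cell cannot be told apart. Of 30 endothelial markers 15 were lower and 0 higher, with a median of -0.94, and their sums were 725, 613 and 538 in NZB:C57 livers, against 1192, 1106 and 1250.3 in NZB:NZB livers. The sums ran from 715 to 985 in BL/6J:NZB livers and from 457 to 775 in BL/6J:C57 livers. NZB:C57 livers thus lay within the BL/6J range and NZB:NZB livers above it. Kdr, the main receptor for vascular endothelial growth factor, had 26.8, 25.2 and 21.2 in NZB:C57 livers, against 68.4, 58.4 and 69.1 in NZB:NZB livers (log2 fold change -1.38, SE 0.19, adjusted p = 0.000366). Cdh5, the cadherin of endothelial junctions, had 15.9, 15.1 and 12.5 in NZB:C57 livers, against 37.7, 32.3 and 39.7 in NZB:NZB livers. The water channel Aqp1 and Flt4, the receptor of lymphatic and sinusoidal vessels, fell by 1.31 and 1.21. Of 23 stellate cell and fibroblast markers 11 were lower and 0 higher, with a median of -0.83 and sums of 338, 265 and 229 in NZB:C57 livers, against 594, 555 and 555 in NZB:NZB livers. BL/6J:NZB livers had sums of 434 to 586 and BL/6J:C57 livers 222 to 418. The NZB:C57 livers lay within the BL/6J range here too, but of the NZB:NZB livers only replicate 1, at 594, lay above it. Reln, a secreted glycoprotein of stellate cells, had 30.4, 25.4 and 16.6 in NZB:C57 livers, against 77.7, 71.5 and 68.5 in NZB:NZB livers (log2 fold change -1.59). Dcn, Lum and Rgs5, of matrix and pericytes, fell by 1.195, 1.04 and 1.04. Lower stellate markers numbered 6 without NZB:NZB replicate 1, 7 without NZB:C57 replicate 3 or NZB:NZB replicate 2 and 17 with all 24 libraries in 1 fit. Each of the 8 genes named here was called in heart with the opposite sign, higher in NZB:C57 hearts.

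Of 39 extracellular matrix genes 20 were lower and 2 higher, with a median of -0.73. Their sums went the other way, at 4426, 4462 and 5659 in NZB:C57 livers, against 4102, 4128 and 4202 in NZB:NZB livers. Without NZB:NZB replicate 1 there were 14 lower and 0 higher. Sparc, a collagen-binding matrix protein, had 78.5, 59.6 and 46.8 in NZB:C57 livers, against 159, 143 and 154 in NZB:NZB livers (log2 fold change -1.32, SE 0.20), Nid1, of basement membranes, fell by 1.27 and Col5a2 by 0.98, all opposite and called in heart. Macrophage and Kupffer cell markers were split, with 5 of 21 lower and 1 higher. Adgre1, which encodes F4/80, had 11.8, 9.70 and 9.22 in NZB:C57 livers, against 27.2, 21.2 and 20.2 in NZB:NZB livers, and Vsig4 and Mrc1 fell by 1.13 and 1.08. Cd5l, a protein that Kupffer cells secrete, rose instead, to 194, 167 and 124 in NZB:C57 livers, against 84.4, 64.5 and 60.8 in NZB:NZB livers. Adgre1 lost its call without NZB:C57 replicate 2 or 3 or NZB:NZB replicate 1 or 2 and with no filter (adjusted p from 0.0519 to 0.0978), and Mrc1 without NZB:NZB replicate 1 (adjusted p = 0.0532), so that the count of lower members fell to 1 without NZB:NZB replicate 1. Without the other libraries it was 2 to 4. Adgre1 and Mrc1 were called in heart with the opposite sign, Vsig4 had that sign without passing and Cd5l was not tested.

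Lymphocyte markers were low, and few were called. Cd3e, a subunit of the T cell receptor, had 5.02, 3.30 and 5.27 in NZB:C57 livers, against 0.823, 0.885 and 0.995 in NZB:NZB livers. Its log2 fold change was 1.52, and it was 1 of 4 tested T and NK cell markers called. BL/6J livers reached at most 0.223, so Cd3e met the filter through the NZB:C57 livers alone and could only be called higher. Igkc, the kappa light chain, and Jchain, which links secreted antibodies, rose by 0.93 and 0.82 among 8 tested B and plasma cell markers. With all 24 libraries in 1 fit Igkc lost its call (adjusted p = 0.240), and so did Jchain there and without NZB:C57 replicate 2 or NZB:NZB replicate 3 (adjusted p from 0.0508 to 0.0836). Both had the opposite sign in heart without passing, and Cd3e was not tested. Of 8 cholangiocyte markers 1 was higher and 1 lower, Pkhd1, the fibrocystin of bile duct cilia (log2 fold change -0.96, not tested in heart), and of 5 erythroid markers 0 were called.

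Of 42 genes of cell division 17 were lower, 0 higher and 25 not called, with a median of -0.65. Mki67, which encodes the Ki-67 proliferation antigen, had 13.4, 24.3 and 10.0 in NZB:C57 livers, against 46.5, 53.1 and 31.7 in NZB:NZB livers (log2 fold change -1.46, SE 0.28, adjusted p = 0.00415), while BL/6J livers had 2.38 to 4.48. Mcm6, of the replicative helicase, had 13.5, 12.2 and 10.7 in NZB:C57 livers, against 27.4, 25.3 and 22.9 in NZB:NZB livers. The mitotic kinase Plk1 fell by 1.28 and cyclin Ccnd2 by 1.22. Both groups of NZB livers lay above the BL/6J livers for Mki67, Mcm6 and Plk1. Lower division genes numbered 7 without NZB:NZB replicate 2, 8 without NZB:NZB replicate 1, 11 without NZB:C57 replicate 3, 8 with a pseudocount of 0.1 and 10 with edgeR or quantile normalization. Mki67 and Ccnd2 were called in heart with the opposite sign, and Mcm6 and Plk1 had that sign without passing.

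**Figure D4:**
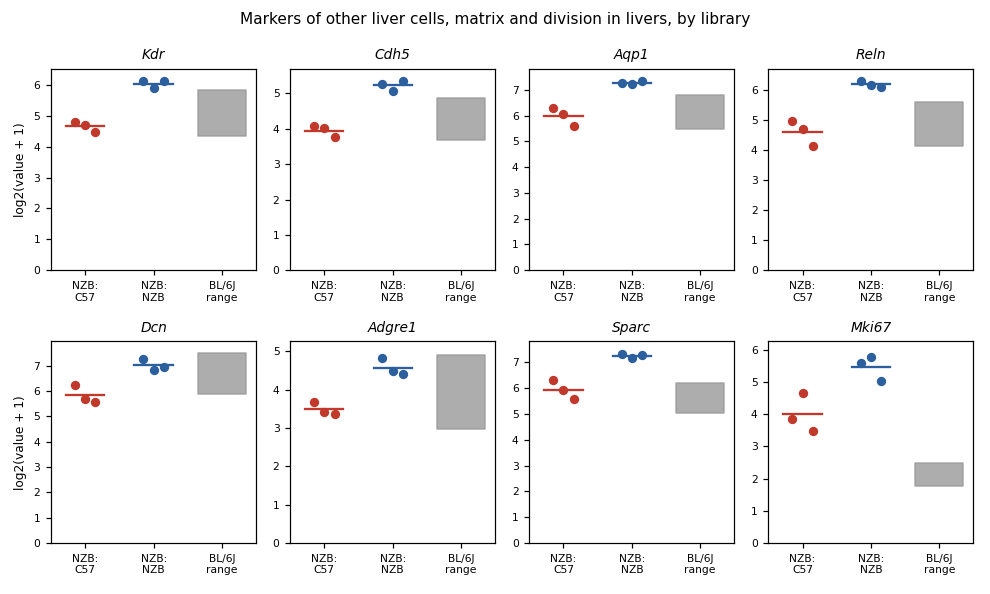
Values of markers of endothelial (Kdr, Cdh5, Aqp1), stellate (Reln, Dcn) and Kupffer cells (Adgre1), matrix (Sparc) and division (Mki67) as log2(value + 1) in each NZB:C57 liver (red) and NZB:NZB liver (blue), with bars at the group means and the range of the 6 BL/6J livers in grey. NZB:C57 livers lie below NZB:NZB livers for each gene.

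Respiratory complexes I, III and IV and ATP synthase combine subunits encoded in mtDNA with subunits encoded in the nucleus, while complex II is nuclear alone. Of 37 genes of complex I, 14 of complexes II and III, 14 of complex IV, 16 of ATP synthase and 30 of mtDNA maintenance and expression, 0 were called in either direction, and their medians ran from -0.04 to 0.04. With library totals 4 complex I genes, 1 of complexes II and III, 5 of ATP synthase and 3 of mtDNA maintenance and expression were lower, and with quantile normalization 3 of ATP synthase. All log2 fold changes of complex I genes lay between -0.14 and 0.19. Of 30 mitochondrial chaperone, protease and stress genes 1 was called, Atf4, the transcription factor of the integrated stress response, at 122.8, 121 and 129 in NZB:C57 livers, against 93.3, 75.8 and 94.0 in NZB:NZB livers (log2 fold change 0.50, SE 0.11). Its call ended without NZB:NZB replicate 2 and with library totals (adjusted p = 0.0576 and 0.103). Of 34 antioxidant genes 2 were lower, against 14 with library totals and 10 with quantile normalization. Both make NADPH in mitochondria. Idh2 had 96.5, 95.5 and 80.8 in NZB:C57 livers, against 124, 129.5 and 129.5 in NZB:NZB livers (log2 fold change -0.49), and Nnt had 156, 159.5 and 161 in NZB:C57 livers, against 192, 203 and 191 in NZB:NZB livers (log2 fold change -0.29, SE 0.07). Nnt, which shares 47.8% of its words with another annotated gene, lost its call without any 1 library other than NZB:C57 replicate 3 (adjusted p from 0.0536 to 0.101 with the replicate block included). Atf4, Idh2 and Nnt were called in heart with the opposite sign.

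Of 19 clock genes and 26 endoplasmic reticulum chaperones 0 were called. Interferon-stimulated genes had 4 of 39 lower, namely Ifit2 at -0.80, Trim30a at -0.95, Gbp2 at -0.78 and Oasl2 at -0.60, and without NZB:NZB replicate 2 the count was 0, without NZB:NZB replicate 1 or 3 it was 1. Oasl2 and Gbp2 lost their calls under 14 and 12 alternatives, Ifit2 under 3 and Trim30a under 2. Of 16 genes of antigen presentation 2 were lower. Cd74, the invariant chain of class II molecules, had 33.7, 34.0 and 22.1 in NZB:C57 livers, against 55.9, 41.9 and 59.3 in NZB:NZB livers, and H2-Ea-ps fell by 0.87. Without NZB:C57 replicate 3, NZB:NZB replicate 1 or NZB:NZB replicate 3 the count was 0. Ifit2, Trim30a, Gbp2, Cd74 and H2-Ea-ps were called in heart with the opposite sign, and Oasl2 had that sign without passing. Pgam1-ps2, annotated as a pseudogene, had 428, 497 and 432 in NZB:C57 livers, against 22.6, 28.6 and 31.9 in NZB:NZB livers. All of its 31-base words occur in other genes such as Pgam1, its heart change had the opposite sign without passing, and its own reads are uncertain.

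The opposite sign in heart held across the called genes. Of the 1064 genes called in liver 660 were tested in heart, and 640 of them (96.97%) had the opposite sign there, 170 of 182 higher genes and 470 of 478 lower genes. The share rests on the genotype labels within each tissue. An exchange of the NZB:C57 and NZB:NZB labels in 1 tissue would turn every sign there. The number of opposite signs would then be 20 of the 660 genes (3.03%). This follows from the count of 640 alone and is no separate result, and whether the labels are right was not tested. In heart itself 15.9% of 13803 genes were called, 1791 higher in NZB:C57 and 399 lower. Of 410 genes called in both tissues 409 had opposite signs, and 1 had the same, Myom2, a protein of the sarcomere M-band. Myom2 had 26.2, 33.0 and 29.0 in NZB:C57 livers, against 17.1, 11.2 and 15.5 in NZB:NZB livers, with at most 0.119 in BL/6J livers, and 935, 926 and 851 in NZB:C57 hearts, against 663, 785 and 716 in NZB:NZB hearts. Its liver call ended with a pseudocount of 0.1 (adjusted p = 0.119). The difference between the tissues was tested in 1 fit of all 24 libraries and passed for 23.9% of 14968 genes, 7.66% with a positive and 16.2% with a negative liver minus heart difference. For the 404 liver-called genes that were not tested in heart, this difference adds nothing to the liver change. The sign depends on where 0 is set. With library totals as scaling, the median of all genes was -0.23 in liver and -0.66 in heart, and 394 of the 660 genes (59.7%) had opposite signs, but 627 (95%) did when each change was taken relative to the median of its tissue. Among 203 called genes with values above 5 in all 24 libraries, 202 had opposite signs. Their median size was 0.68 in liver and 0.46 in heart, and the median size of the sum of both changes was 0.20. Over all 7550 tested genes above 5 in all 24 libraries, called or not, the median size was 0.093 in liver and 0.059 for the sum. The sum was thus smaller than the liver change there too, and the opposite direction was not particular to the called genes. The share of opposite signs over all genes is not given here. NZB:C57 hearts also stood apart from the other hearts, with 33.4% to 34.1% of reads in their top 20 genes against 11.5% to 14.5%. Myh6 had 91692, 89892 and 87003 in NZB:C57 hearts, against 7707, 8913 and 8572 in NZB:NZB hearts, and BL/6J hearts had 12215 to 15114. The part of this difference in the opposite signs was not tested.

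**Figure D5:**
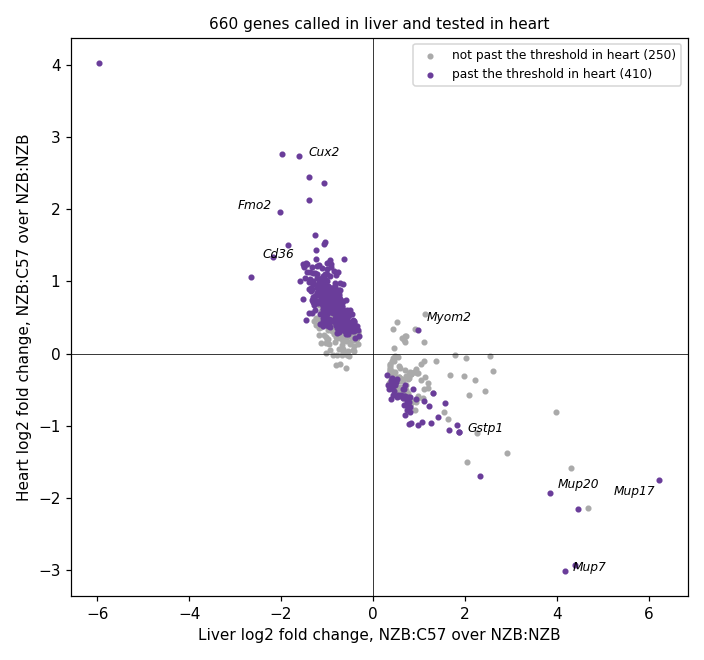
Heart log2 fold change of NZB:C57 over NZB:NZB against the liver log2 fold change for the 660 genes called in liver and tested in heart, in purple where also called in heart (410) and grey where not (250). The points fill the upper left and lower right corners, with 640 of opposite sign, and Myom2 is the purple point in the upper right.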

How the data were processed

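RNA-seq of polyadenylated RNA was made from pools of liver or left ventricle. Per the labels and the submitters' processing notes, the tools were cutadapt 1.2.1, Bowtie2 2.0.6, RSEM 1.2.3 and edgeR, with build GRCm38. The deposited values are a normalised signal per gene, and the rule of normalization and any filter are not given in the sources used here. In each of the 24 columns 100% of values were whole multiples of 1 constant (tolerance 0.01 reads), so reads were recovered. Symbols were matched for 15116 of 15323 genes.

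A gene was tested in a tissue if 3 or more of the 12 libraries reached a value of 1. Tests were made with limma 3.58.1 (R 4.3.3, trend) on log2(value + 1), all 12 libraries of the tissue sharing 1 spread, with Benjamini-Hochberg adjustment and a threshold of 0.05. The liver minus heart difference used all 24 libraries. edgeR 4.0.16 and DESeq2 1.42.0 on recovered reads, TMM, library totals, quantile normalization, pseudocounts of 0.1 and 5, other filters and sample sets, a replicate block and leaving out each library were alternatives. Intervals and floors of 3 reads cover counting error only. The tests were checked on simulated data.

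Named genes were the 10 highest and 10 lowest changes with groups apart and a mean of at least 10 (predicted gene models left out), the 4 called genes of smallest p in every list, all tested MUP, growth hormone axis and Y-linked members, up to 5 genes each way called with the same sign in both tissues and the 5 smallest p of the tissue difference. Cyp7a1, Hsd3b5, Elovl3, Cyp4a12a, Hnf4a and Gm13340 fall outside this rule, as do Alb and the heart muscle genes that check labels. The members and lists were chosen with earlier results of these data known. A few genes that the rule names are not reported here. Promoter sequences are from RefSeq.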

Additional observations from a re-analysis of the deposited data

Results flagged for a closer look

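The change of NZB:C57 over NZB:NZB passed in both tissues for 43 named genes, and for each the liver and heart changes differed in 1 fit of all 24 libraries (limma, adjusted p under 0.05). All but Myom2 had opposite signs in the 2 tissues. The fit used the same libraries that had picked these genes, so its passing adds no separate evidence for them. The values are liver minus heart differences in log2 fold change, negative where the liver change lay below the heart change. Among MUP genes, other sex-biased genes and the growth hormone axis the difference was Mup20 5.79, Mup11 6.61, Mup7 7.18, Mup17 7.99, Mup19 7.34, Cd36 -2.78, Gstp1 2.96, Acot3 -3.72, Prlr -1.67, Fmo2 -3.99, Igfbp3 -2.26, Cux2 -4.35 and Trim24 -0.96. For markers of endothelial, stellate and Kupffer cells and for matrix it was Reln -2.59, Cdh5 -2.06, Nid1 -1.88, Aqp1 -2.26, Flt4 -2.05, Kdr -2.28, Sparc -1.89, Lum -1.46, Col5a2 -1.36, Rgs5 -1.7, Dcn -2.0, Mrc1 -1.58 and Adgre1 -1.72. For genes of cell division it was Ccnd2 -2.05 and Mki67 -1.93. For metabolic and mitochondrial genes it was Scarb1 1.27, Ucp2 -1.33, Idh2 -0.9, Pdk1 -1.17, Pnpla3 -1.97, Atf4 0.89, Pkm -1.71, Nnt -0.54 and Acadl -0.65. For immune genes it was Ifit2 -1.29, Trim30a -1.44, Cd74 -1.55, H2-Ea-ps -1.68 and Gbp2 -1.36. NZB:NZB heart 1 was at 0 for the 5 MUP genes. Myom2, higher in NZB:C57 in both tissues, had a difference of 0.65. The 2 tissues were prepared as separate libraries, and the heart libraries of the 2 genotypes differed in the share of reads in their top 20 genes, 33.4% to 34.1% in NZB:C57 hearts against 11.5% to 11.9% in NZB:NZB hearts. Its part in these differences was not tested.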

How the results depend on the processing

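The higher genes numbered 175 when only genes above 0 in all 12 libraries of the NZB nuclear background were tested, a filter that drops genes silent in heart, and the lower genes numbered 909 with all 24 libraries in 1 fit and 2534 with library totals. Without 1 library the lower genes ranged from 311 (NZB:NZB replicate 1) to 528 (NZB:C57 replicate 1). Under the filter on all 12 libraries 3 MUP, 12 male-biased, 5 bile acid and 8 complement and coagulation genes were higher. On the recovered reads edgeR called 449 genes higher and 415 lower in liver, and DESeq2 506 and 483. The liver minus heart difference gave 592 higher and 1514 lower genes with edgeR. Among genes called under each scaling, 17.22% had opposite signs in heart with library totals and 85.56% with quantile normalization. Changes relative to the tissue medians were computed as an addition chosen after seeing the data. Of 112 called named genes 28 lost the call under at least 1 of 18 alternatives, and 0 changed sign. Of 28 that were not called 8 passed under an alternative and 15 changed sign. The reversed log2 fold changes were Igfbp4 -0.0034, Stat5a -0.058, Eif2s3y -0.13, Stat5b -0.14, Esr1 -0.055, Ghr -0.24 with library totals, Igfbp4 -0.13, Ghr -0.35 with quantile normalization, Bcl6 -0.0016, Onecut1 -0.067, Socs2 -0.16 with edgeR, Onecut1 -0.065, Socs2 -0.16 with DESeq2 and Uty 0.0094 with TMM. Without 1 library they ranged as Stat5b -0.0011 to 0.18, Cish -0.28 to 1.32, Bcl6 -0.016 to 1.13, Igfbp1 -0.13 to 0.90, Ptpn6 -0.12 to 0.013, Kdm5d -0.21 to 0.035, Onecut1 -0.73 to 1.002, Socs2 -0.63 to 0.93, Ddx3y -0.35 to 0.13, Uty -0.11 to 0.084, Ghr -0.072 to 0.12. The cause was not tested.

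Same-numbered NZB:C57 and NZB:NZB livers had correlations of deviations of 0.00768, 0.0241 and 0.0805, so the numbers were not taken as pairs. With the replicate block 441 genes were higher and 540 lower, and the liver minus heart difference gave 1044 and 2328. Depth limits genes of few reads, and at 7294525 reads 1 read is a value of 0.194.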
